A study of Homo sapiens with 42 samples.

Results

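K562 cells treated with imatinib for 6 h (IM 6h) were compared with untreated K562 cells (CTRL) by sequencing of poly(A) mRNA from whole cells. K562 is an established human cell line from chronic myeloid leukaemia that carries the BCR-ABL1 fusion kinase, and imatinib is an inhibitor of that kinase. The comparison rests on 6 of the 42 libraries of the study, 3 of IM 6h and 3 of CTRL, which were chosen by their labelled treatment and time. IM 6h cells received 1 µM imatinib for 6 h, and CTRL cells received no compound. All groups came from this 1 cell line and so carry the fusion, and the replicates of a group were separate biological experiments. 3 further groups of 3 mRNA libraries each were set against IM 6h: IM 1h and IM 18h (1 µM imatinib for 1 h or 18 h) and JTE 6h (5 µM JTE-607, a compound directed at the mRNA 3′ end nuclease CPSF73, for 6 h).

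BCR-ABL1 is a constitutively active tyrosine kinase that feeds several signalling routes. It phosphorylates the transcription factor STAT5, drives RAS and ERK signalling through the adaptor GRB2, and activates PI3 kinase and AKT, which keep FOXO factors out of the nucleus. The transcription factor MYC lies downstream of these routes and is known for its hold on ribosome production. K562 cells also keep an erythroid programme with embryonic and fetal globins and the factors GATA1, TAL1 and KLF1, and they are known to make more haemoglobin when the kinase is inhibited.

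Total counts, in read pairs assigned to genes, ranged from 17855236 to 19031221 in CTRL and from 17578358 to 22054838 in IM 6h. The labelled cell type matched its markers. GATA1, TAL1, LMO2, HBE1, BCR and ABL1 were counted in all 6 libraries, and CDKN2A, which K562 cells have lost, had 0 counts in all 6. Markers of other cell types were mixed. PF4, MS4A1 and S100A8 had 0 counts in every library, CD3E at most 1, MPO at most 3 and ALB at most 4. COL1A1 had 7 to 27 counts, and EPCAM, a marker of epithelia, 1588 to 2234. Of the marker lists read below, 6 of 15 megakaryocyte markers and 9 of 19 myeloid and lymphoid markers passed the count filter. In a principal component analysis of the libraries, the 3 IM 6h libraries lay at 18.97, 23.11 and 32.69 on the first component and the CTRL libraries between -14.4 and -5.27. IM 6h replicate 3 therefore lay farthest from CTRL, and values without it are given beside results that moved most with it.

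Promoters are shown for genes from both sides of the response, because each carries a motif of a factor class that the pathways above use. The sequence is that of RefSeq on GRCh38.p14, 250 bases up to the base before the annotated start, on the strand of the gene, with the motif in capitals. CISH is a feedback inhibitor that STAT5 induces, and its window holds 4 copies of TTCNNNGAA, the STAT5 consensus, whose first bases lie 241, 230, 129 and 112 bases before the start.
CISH, chr3:50611775-50612024, minus strand: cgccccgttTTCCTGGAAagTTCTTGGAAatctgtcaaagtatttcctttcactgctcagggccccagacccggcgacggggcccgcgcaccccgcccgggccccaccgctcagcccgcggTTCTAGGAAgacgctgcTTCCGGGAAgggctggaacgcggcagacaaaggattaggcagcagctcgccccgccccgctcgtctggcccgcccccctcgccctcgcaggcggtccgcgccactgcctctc
EGR1 is an immediate early transcription factor gene, and its window holds 2 CArG boxes, the motif of serum response factor, 105 and 83 bases before the start.
EGR1, chr5:138465229-138465478, plus strand: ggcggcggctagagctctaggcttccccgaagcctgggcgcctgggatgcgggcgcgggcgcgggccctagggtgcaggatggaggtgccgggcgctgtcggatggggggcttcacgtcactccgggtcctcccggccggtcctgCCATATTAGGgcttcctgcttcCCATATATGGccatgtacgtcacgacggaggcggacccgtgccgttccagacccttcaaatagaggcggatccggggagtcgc
KEL encodes a blood group glycoprotein of the red cell, and its window holds 1 AGATAA, a form of the GATA factor motif, 62 bases before the start.
KEL, chr7:142962364-142962613, minus strand: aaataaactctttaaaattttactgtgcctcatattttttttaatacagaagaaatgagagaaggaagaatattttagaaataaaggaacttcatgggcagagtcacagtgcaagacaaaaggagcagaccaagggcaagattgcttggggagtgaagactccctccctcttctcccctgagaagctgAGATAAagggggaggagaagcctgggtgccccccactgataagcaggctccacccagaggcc
EPB42 encodes protein 4.2 of the red cell membrane, and its window holds 2 AGATAA motifs, 208 and 61 bases before the start.
EPB42, chr15:43221019-43221268, minus strand: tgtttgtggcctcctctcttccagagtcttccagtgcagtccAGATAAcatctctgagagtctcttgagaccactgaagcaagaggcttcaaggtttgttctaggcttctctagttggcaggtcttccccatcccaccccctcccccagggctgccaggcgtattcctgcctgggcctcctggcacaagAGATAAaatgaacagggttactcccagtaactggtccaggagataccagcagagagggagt

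Motifs were searched on both strands, and the matches shown overlap no other motif searched. Among the 16062 windows of the 11224 tested genes with a RefSeq window, TTCNNNGAA was in 5.52%, the CArG box in 1.02%, AGATAA in 5.53% and CACGTG, the E-box that MYC binds, in 8.15%. AGATAA was in 8 of 22 windows (36.4%) of erythrocyte membrane and blood group genes and in 4 of 23 (17.4%) of haem synthesis and iron genes. CACGTG was in 4 of 37 windows (10.8%) of ribosome biogenesis genes. TTCNNNGAA was in 2 of 8 windows (25.0%) of STAT5 target genes, those of CISH and BCL6, and BCL6 did not fall in IM 6h. The CArG box was in 1 of 11 windows (9.09%) of immediate early genes, that of EGR1. The windows of SOCS3 and PIM1 hold no TTCNNNGAA, that of FOS no CArG box, and those of AQP1 and KLF1 no AGATAA. A match is a run of letters, and binding was not measured.

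Of 18095 genes tested, 1799 were called between IM 6h and CTRL, which is 9.94% of those tested. A gene was called when its adjusted p by edgeR was below 0.05 and its log2 fold change exceeded 0.6 up or down. In IM 6h, 1054 genes (5.82%) were higher and 745 (4.12%) were lower. The median log2 fold change was 1.09 among the higher genes, of which 140 exceeded 2, and -0.91 among the lower genes, of which 47 fell by more than 2 on the log2 scale. Over all genes tested the median was 0.04. The number of higher genes depended on single libraries: it was 569 without IM 6h replicate 3, 603 without CTRL replicate 3 and 666 without CTRL replicate 1. The libraries were also fitted in pairs, with the CTRL replicates numbered as in the sequencing summary of the study, and this paired fit called 2480 genes, 1520 higher and 960 lower, of which 1789 were shared with the 1799. Fitted in the same pairs without the other 21 libraries, 2114 genes were called, 1574 of them shared. Since whole cultures were sequenced, fewer cells of a type and less RNA per cell cannot be told apart. Levels below are in CPM, counts scaled to the library total and its TMM factor. SE is an approximate standard error of a log2 fold change, its size divided by the square root of the edgeR F statistic.

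**Figure D1:**
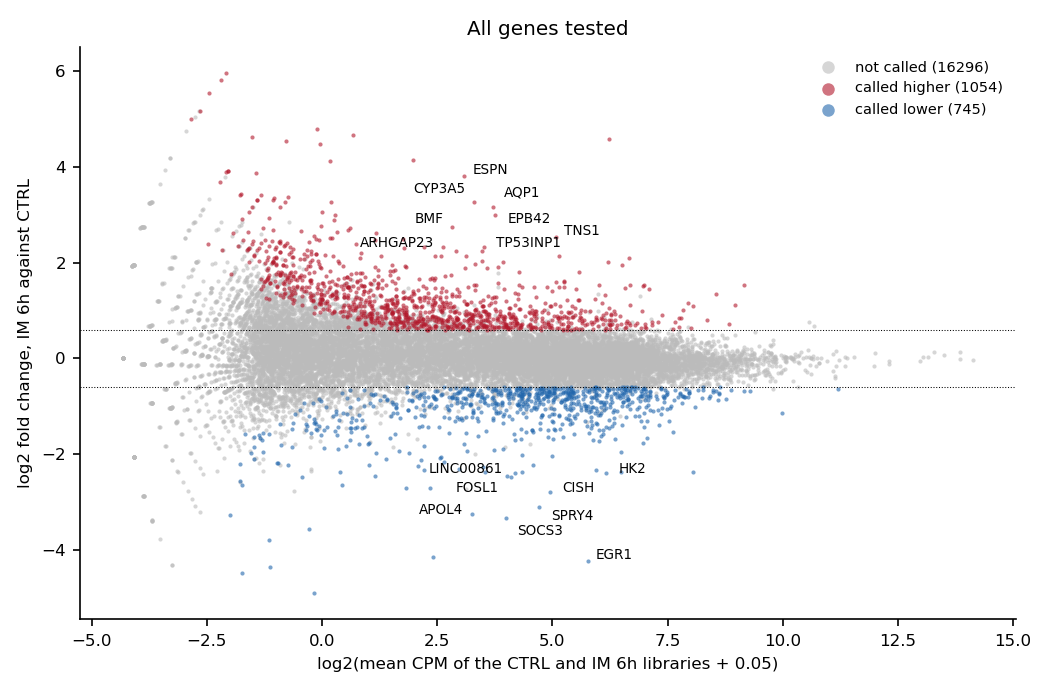
Log2 fold change of IM 6h over CTRL (vertical axis) against log2 of the mean CPM of the 6 libraries plus a small constant (horizontal axis), 1 point per gene tested. Genes called higher, called lower and not called are in separate colours, and the genes with the largest changes are labelled. Dotted lines mark the fold change threshold. Of 18095 genes, 1054 were called higher and 745 lower.

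Known targets of STAT5 were mostly lower. Of 7 tested members of the STAT5 target list, 5 fell, CISH, SOCS2, SOCS3, PIM1 and PIM2, and none rose, with a median log2 fold change of -2.33. OSM and IL2RA did not pass the count filter. The other members were SOCS1, at a log2 fold change of -1.26 (adjusted p 0.052 by edgeR, and called in the paired fit), and BCL6, at 0.80 (adjusted p 0.12 by edgeR). SOCS3 (ENSG00000184557, hg38, chromosome 17, 78356778 to 78360077), an inhibitor of JAK kinases, was at 27.6, 34.0 and 25.5 CPM in CTRL and at 4.09, 1.88 and 2.53 CPM in IM 6h. Every treated library lay far below every control, and the log2 fold change was -3.34 (SE 0.29, adjusted p 1.92e-07 by edgeR). CISH (ENSG00000114737, chromosome 3, 50606490 to 50611831), whose promoter is shown above, was at 58.8, 68.3 and 35.0 CPM in CTRL and at 8.10, 6.49 and 9.02 CPM in IM 6h. The groups did not overlap, and CISH fell by 2.78 on the log2 scale (SE 0.32, adjusted p 5.34e-06 by edgeR).

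SOCS2, another member of the same inhibitor family, was at 103, 130.5 and 74.2 CPM in CTRL and at 21.6, 16.2 and 23.5 CPM in IM 6h, a log2 fold change of -2.33 (SE 0.24, adjusted p 2.03e-06 by edgeR). The survival kinases moved with them. PIM1 was at 384, 675 and 273 CPM in CTRL and at 77.5, 83.5 and 97.2 CPM in IM 6h. Its controls were spread widely, with replicate 2 the highest, while the treated libraries lay close together, and the log2 fold change was -2.37 (SE 0.48, adjusted p 0.00213 by edgeR). In the pairs of the 6 libraries alone PIM1 was not called (-2.28, adjusted p 0.0612 by edgeR). PIM2 fell by 1.96 on the log2 scale (SE 0.17, adjusted p 1.92e-07 by edgeR), with 128 to 168 CPM in CTRL and 31.7 to 42.5 CPM in IM 6h.

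Genes that ERK signalling induces fell as well, with a wide spread among treated libraries. Of 10 tested members of the ERK feedback list 7 fell and none rose (median log2 fold change -1.04), and of 12 tested immediate early genes 7 fell and none rose (median -1.0005). DUSP4 and DUSP6, phosphatases of ERK that are often read as markers of the route, did not pass the count filter. EGR1 (ENSG00000120738, chromosome 5, 138465490 to 138469315) was at 40.9, 159 and 109.8 CPM in CTRL and at 10.7, 1.27 and 4.18 CPM in IM 6h. Replicate 1 was the highest treated library and the lowest control, yet the groups did not overlap, and the log2 fold change was -4.24 (SE 0.74, adjusted p 0.000603 by edgeR). Without IM 6h replicate 1 it was -5.28 (SE 0.89, adjusted p 0.00064 by edgeR).

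SPRY4, a Sprouty inhibitor of RAS activation (chromosome 5, 142310427 to 142326455), was at 37.8, 52.1 and 49.95 CPM in CTRL and at 12.6, 0.41 and 2.81 CPM in IM 6h. It fell by 3.11 on the log2 scale (SE 0.60, adjusted p 0.0013 by edgeR). Without IM 6h replicate 1 the log2 fold change was -4.91. ETV5, an ETS factor under ERK control, was at 28.8, 42.9 and 25.4 CPM in CTRL and at 17.0, 1.72 and 5.06 CPM in IM 6h. The same library was again the highest of the treated, and the log2 fold change of -2.01 (SE 0.44, adjusted p 0.00301 by edgeR) became -3.29 without it. Neither SPRY4 nor ETV5 was called when only the 6 libraries were fitted (adjusted p 0.0903 and 0.141 by edgeR), also in pairs (0.137 and 0.11). The SPRED proteins, which also hold back RAS, fell too, and the log2 fold change was -1.33 for SPRED1 (SE 0.21) and -0.90 for SPRED2 (SE 0.14).

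Among subunits of the AP-1 factor, FOSL1 was at 26.1, 15.6 and 40.0 CPM in CTRL and at 5.65, 3.24 and 6.05 CPM in IM 6h. The treated libraries all lay below the lowest control, and the log2 fold change was -2.45 (SE 0.51, adjusted p 0.00204 by edgeR). FOS was low throughout, at 0.83, 3.19 and 2.73 CPM in CTRL and 0.56, 0.05 and 0.44 CPM in IM 6h, and fell by 2.64 on the log2 scale (SE 0.68, adjusted p 0.00993 by edgeR). JUND fell by 0.80 on the log2 scale (SE 0.16). JUNB, at 19.3, 20.7 and 31.5 CPM in CTRL and 15.2, 15.7 and 21.6 CPM in IM 6h, had overlapping groups and was not called (log2 fold change -0.45, adjusted p 0.248 by edgeR).

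**Figure D2:**
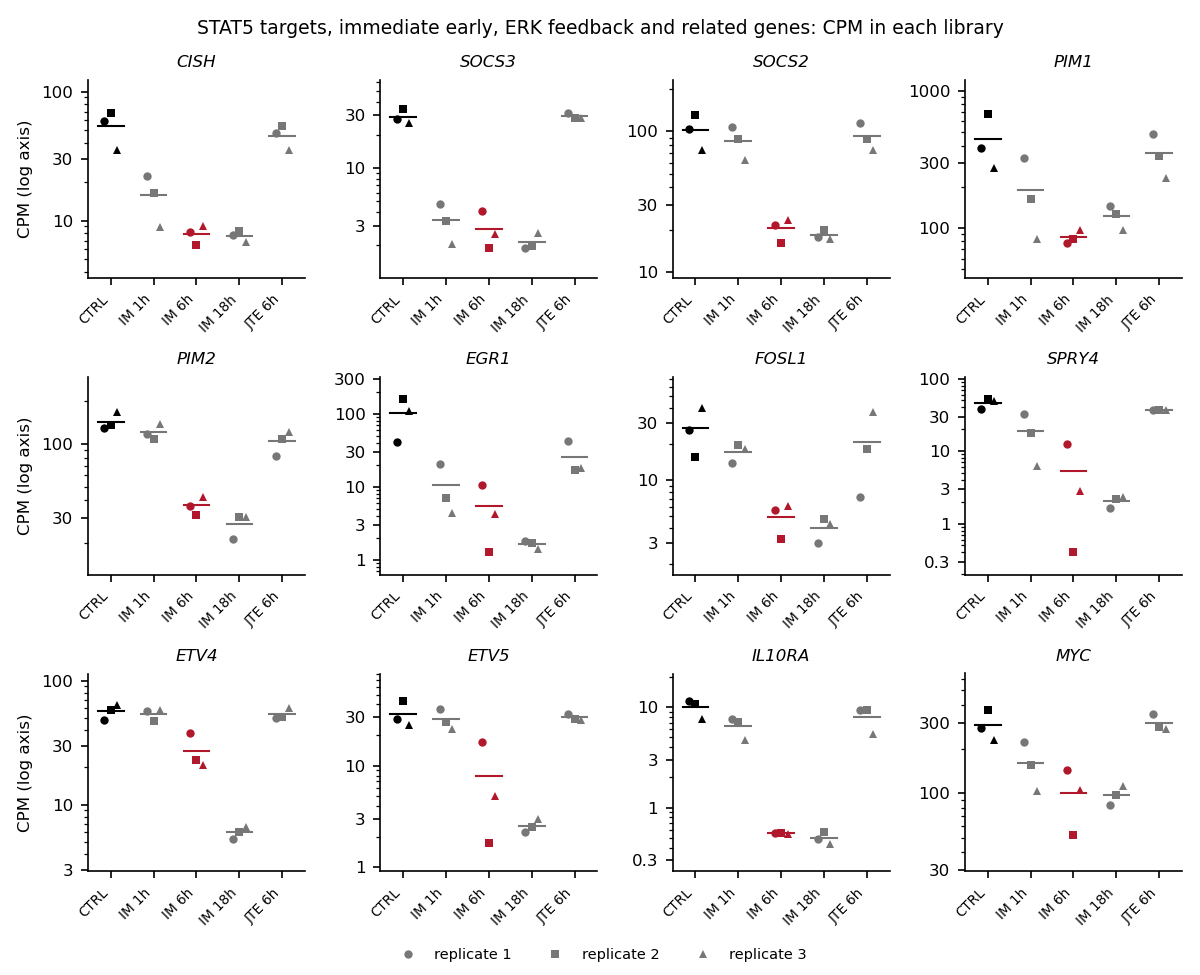
CPM (vertical, log axis) in each library of CTRL, IM 1h, IM 6h, IM 18h and JTE 6h (horizontal) for genes of the STAT5 and ERK routes, IL10RA and MYC, with 1 symbol per replicate number and a line at the group mean. SOCS3 was between 25.5 and 34.0 CPM in CTRL and between 1.88 and 4.09 CPM in IM 6h.

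Genes of the kinase and its adaptors were mostly not called. Of 15 tested members, 1 rose and 1 fell, beside 5.82% higher and 4.12% lower among all genes tested. The median log2 fold change of the list was -0.10. BCR was at 142, 139.8 and 151 CPM in CTRL and at 109.8, 139 and 149 CPM in IM 6h, and ABL1 at 283, 299 and 355 CPM and at 251, 309 and 316 CPM. Both had overlapping groups and were not called, with log2 fold changes of -0.12 and -0.10. Reads of the fusion transcript cannot be told from those of its parent genes in these counts. STAT5A, the gene of 1 of the STAT5 proteins, was at 439, 523 and 507 CPM in CTRL and at 372, 209 and 299 CPM in IM 6h (log2 fold change -0.74, SE 0.15, adjusted p 0.00143 by edgeR), and it was not called without IM 6h replicate 2. GAB1, a docking protein for PI3 kinase, was at 38.4, 45.6 and 23.8 CPM in CTRL and at 74.0, 76.4 and 104 CPM in IM 6h (log2 fold change 1.24, SE 0.32, adjusted p 0.0109 by edgeR). It was not called without IM 6h replicate 3, at 1.04 (adjusted p 0.0726 by edgeR), or without CTRL replicate 3.

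Of 8 tested cytokine receptors, 1 rose and 2 fell, beside 5.82% higher and 4.12% lower among all genes tested. IL10RA, a chain of the interleukin 10 receptor (chromosome 11, 117986348 to 118003037), was at 11.4, 10.7 and 7.58 CPM in CTRL and at 0.560, 0.557 and 0.55 CPM in IM 6h. The treated libraries were nearly equal, and the log2 fold change was -4.14 (SE 0.31, adjusted p 2.23e-08 by edgeR). IL4R also fell, from 2.09 to 4.30 CPM in CTRL to 0.50 to 1.34 CPM (log2 fold change -1.78, SE 0.36, adjusted p 0.00151 by edgeR). EPOR, the erythropoietin receptor of erythroid progenitors, was at 16.4, 17.1 and 23.0 CPM in CTRL and at 28.4, 34.6 and 50.7 CPM in IM 6h. Its groups did not overlap, and it rose by 1.01 on the log2 scale (SE 0.21, adjusted p 0.00168 by edgeR), and by 0.72 without IM 6h replicate 3. KIT, the receptor of stem cell factor and a target of imatinib, stayed between 1.05 and 4.13 CPM in CTRL and between 1.38 and 3.74 CPM in IM 6h and was not called.

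The next question was how the growth programme stood at 6 h. MYC was at 277, 369 and 229.5 CPM in CTRL and at 143, 52.3 and 106 CPM in IM 6h. All treated libraries were below all controls, with replicate 2 the lowest, and the log2 fold change was -1.54 (SE 0.29, adjusted p 0.000793 by edgeR). MYC stayed called in the paired fit but not in the pairs of the 6 libraries alone (-1.63, adjusted p 0.0511 by edgeR). MXD3 and MXD4, which compete with MYC for its partner MAX, rose. MXD4 was at 6.67, 9.43 and 7.97 CPM in CTRL and at 14.8, 16.4 and 27.2 CPM in IM 6h (log2 fold change 1.28, SE 0.23, adjusted p 0.000443 by edgeR, and 0.94 without IM 6h replicate 3), and MXD3 had a log2 fold change of 1.47 (SE 0.22, adjusted p 7.94e-05 by edgeR). MXI1, of the same family, was not called (0.30, adjusted p 0.444 by edgeR). In the list of 11 tested MYC and MAX network genes, 2 rose and 1 fell, beside 5.82% higher and 4.12% lower among all genes tested.

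Ribosome biogenesis had the most members lower of the 28 lists. All 37 members passed the count filter, 28 fell and none rose, against 4.12% called lower among all genes tested. All 37 had a log2 fold change below 0, the median was -0.99, and 33 had no overlap between the groups, beside 32.4% of all tested genes without overlap in either direction. WDR43, of the processome that starts cutting the rRNA precursor, was at 248, 212 and 233 CPM in CTRL and at 97.2, 63.5 and 102 CPM in IM 6h (log2 fold change -1.40, SE 0.17, adjusted p 1.05e-05 by edgeR). POLR1B, the second largest subunit of RNA polymerase I, was at 114, 108 and 129 CPM in CTRL and at 52.8, 31.3 and 53.4 CPM in IM 6h (log2 fold change -1.35, SE 0.17, adjusted p 1.46e-05 by edgeR). Both genes were lower in every treated library than in any control.

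PNO1, an assembly factor of the small ribosomal subunit, was at 80.2, 64.1 and 79.0 CPM in CTRL and at 30.4, 29.2 and 30.5 CPM in IM 6h (log2 fold change -1.31, SE 0.16, adjusted p 6.91e-06 by edgeR). RRP1B, a nucleolar processing factor, was at 273, 238 and 242 CPM in CTRL and at 126, 119 and 124 CPM in IM 6h (log2 fold change -1.03, SE 0.11, adjusted p 3.23e-06 by edgeR). RRS1, of the large subunit pathway, fell by 1.53 on the log2 scale (SE 0.23). Treated replicates of these genes lay close together. NCL, encoding the abundant nucleolar protein nucleolin, was at 1791, 1412 and 1440.0 CPM in CTRL and at 1071, 1172 and 843 CPM in IM 6h, and its log2 fold change of -0.59 (adjusted p 0.0276 by edgeR) was short of the fold change threshold, which it passed with DESeq2 (-0.61). Leaving out any 1 library of the comparison left 25 to 29 members lower.

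**Figure D3:**
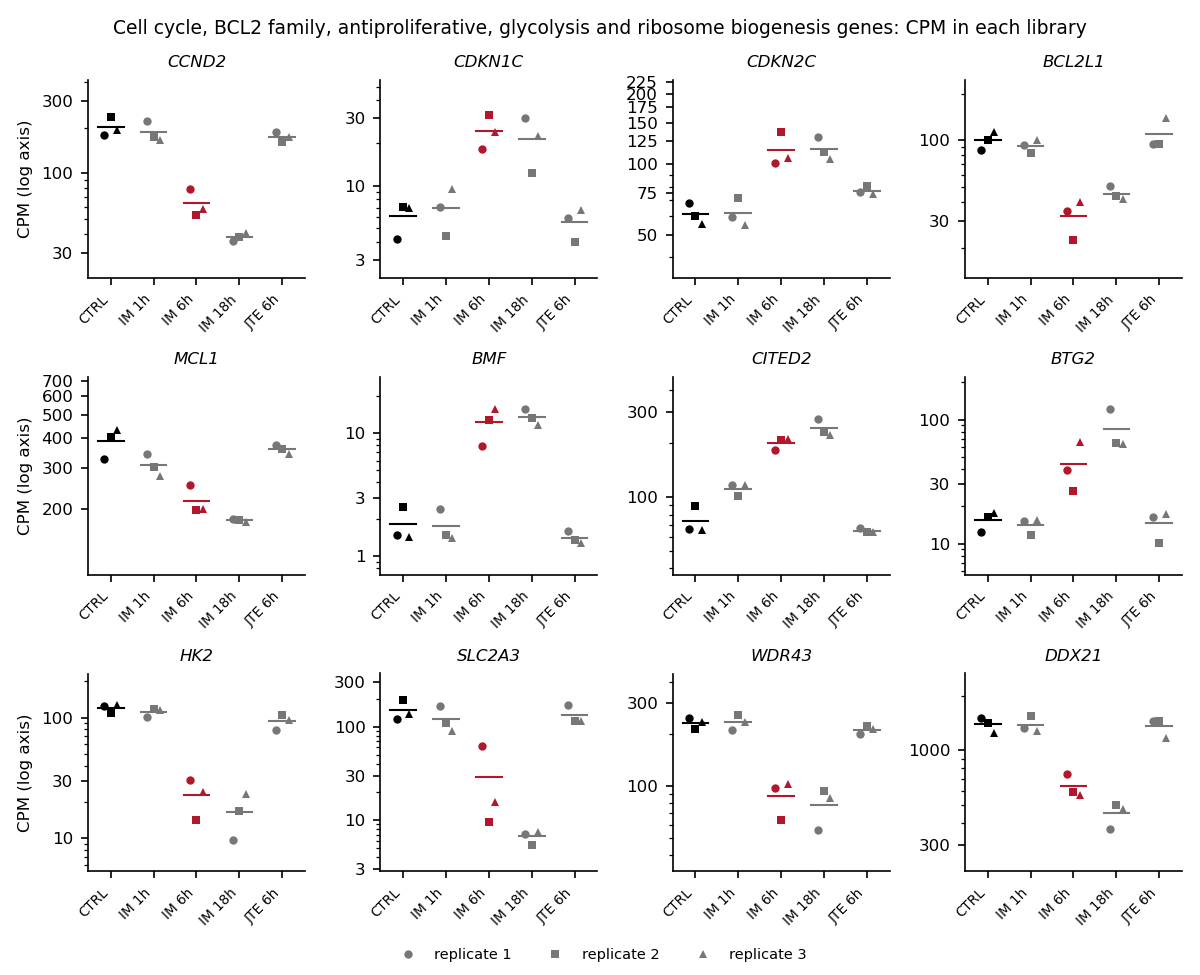
CPM (vertical, log axis) in each library of the same 5 groups for genes of the cell cycle, the BCL2 family, FOXO targets, glycolysis and ribosome biogenesis, with 1 symbol per replicate number and a line at the group mean. WDR43 lay between 212 and 248 CPM in CTRL and between 63.5 and 102 CPM in IM 6h.

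Among nucleotide and polyamine genes, 5 of 20 fell and none rose, and the median log2 fold change was -0.42. The 5 were AMD1 of polyamine synthesis, DHODH and UMPS of the pyrimidine route, and PPAT and IMPDH1 of the purine route. AMD1 was at 244, 190.2 and 234 CPM in CTRL and at 128, 107 and 121 CPM in IM 6h (log2 fold change -0.91, SE 0.13, adjusted p 6.13e-05 by edgeR). The polyamine enzymes ODC1 and SRM and the pyrimidine enzyme CAD, well known as MYC targets, were not called by edgeR without a replicate term, at -0.43, -0.71 and -0.40 on the log2 scale. SRM was called by DESeq2 (-0.73, adjusted p 0.0343), in the paired fit (-0.73, adjusted p 0.00173 by edgeR) and with no count filter. CAD had overlapping groups, at 247, 204 and 149 CPM in CTRL and 153, 184 and 116 CPM in IM 6h, while those of ODC1 and SRM did not overlap.

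Of 18 genes of amino acid supply, 1 fell, and 2 in the paired fit, the second being the arginine transporter gene SLC7A1, which DESeq2 also called. Among all genes tested 4.12% were lower. The log2 fold change was below 0 in 17 of the 18, and the median was -0.47. SLC7A5, the light chain of the leucine transporter, was at 189, 364 and 231 CPM in CTRL and at 122, 82.0 and 115 CPM in IM 6h (log2 fold change -1.30, SE 0.29, adjusted p 0.00402 by edgeR). CHAC1, a target of the stress factor ATF4, was at 0.28, 47.4 and 0.56 CPM in CTRL and at 10.6, 0.20 and 0.99 CPM in IM 6h. ASNS, another ATF4 target, was at 1.65, 14.3 and 2.34 CPM in CTRL and at 8.10, 1.52 and 4.18 CPM in IM 6h. Both were highest in CTRL replicate 2 and, within the treated group, in IM 6h replicate 1, which are a pair in the numbering of the sequencing summary, and neither was called. Their log2 fold changes turned from -2.0022 to 3.23 and from -0.40 to 1.19 without CTRL replicate 2.

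Glycolysis genes moved in both directions. Of 23 members 4 fell, HK2, SLC2A3, PFKP and PFKFB3, and 3 rose, SLC2A1, PFKFB4 and ENO2. HK2, the hexokinase induced in growing cells (chromosome 2, 74833981 to 74893359), was at 125, 109.6 and 127 CPM in CTRL and at 30.2, 14.2 and 24.1 CPM in IM 6h. The groups were far apart, and the log2 fold change was -2.40 (SE 0.25, adjusted p 2.16e-06 by edgeR). SLC2A3, a glucose transporter, was at 122, 194 and 138 CPM in CTRL and at 61.8, 9.63 and 15.6 CPM in IM 6h (log2 fold change -2.37, adjusted p 0.0011 by edgeR), with replicate 1 again the highest treated library. SLC2A1, the transporter of red cells and many other cells, was at 156, 141 and 168 CPM in CTRL and at 182, 216 and 311 CPM in IM 6h. Its rise of 0.61 on the log2 scale (SE 0.18, adjusted p 0.0215 by edgeR) was not called without IM 6h replicate 3 (0.34, adjusted p 0.244 by edgeR). It was also not called without CTRL replicate 1 or CTRL replicate 2, and without any 1 of these 3 libraries 1 member of the list was higher. Its log2 fold change was also below the threshold with DESeq2 (0.59), with RLE size factors (0.59), with no count filter (0.57), with thinned counts (0.57) and in the paired fit (0.59). With only the 6 libraries it was 0.599 (adjusted p 0.0609 by edgeR). LDHA, which makes lactate, was not called (-0.31, adjusted p 0.289 by edgeR).

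In cholesterol synthesis, 2 of 18 members fell, beside 4.12% lower among all genes tested. CYP51A1, a sterol demethylase, had a log2 fold change of -0.64 (SE 0.20) and was not called without IM 6h replicate 3 or CTRL replicate 2. HMGCS1 and SQLE, enzymes of the same route, were not called, at -0.11 and -0.18.

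G1 regulators changed while DNA replication genes did not pass the test. Of 16 G1 genes 3 rose, CDKN1C, CDKN2C and CDKN1B, and 3 fell, CCND2, CCND1 and CDC25A. CCND2, encoding cyclin D2, was at 179, 234 and 192 CPM in CTRL and at 78.8, 53.8 and 58.9 CPM in IM 6h (log2 fold change -1.66, SE 0.14, adjusted p 9.52e-08 by edgeR). CDKN1C, encoding the CDK inhibitor p57, was at 4.24, 7.07 and 6.91 CPM in CTRL and at 18.1, 31.4 and 23.9 CPM in IM 6h (log2 fold change 2.01, SE 0.31, adjusted p 0.000107 by edgeR). Both moved in all treated libraries, with no overlap. CDC25A was short of the fold change threshold in the paired fit (-0.59). CDKN1A, another CDK inhibitor gene, went the other way from CDKN1C. It was not called by edgeR without a replicate term, but was called by DESeq2. The paired fit and the pairs of the 6 libraries alone called it lower. CDKN1B, encoding p27, was at 31.7, 35.7 and 26.5 CPM in CTRL and at 44.9, 53.6 and 48.1 CPM in IM 6h. It rose by 0.64 on the log2 scale (SE 0.18, adjusted p 0.0187 by edgeR), and leaving out replicate 1 or 3 of CTRL or replicate 2 or 3 of IM 6h ended the call.

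None of 26 DNA replication genes was called by edgeR or DESeq2 and 3 had an unadjusted p under 0.05. Their median log2 fold change was -0.01, and LIG1 had an adjusted p under 0.05 with a fold change below the threshold (0.38, adjusted p 0.009 by edgeR). MCM2, a subunit of the replicative helicase, was at 187, 189 and 145 CPM in CTRL and at 185, 206 and 193 CPM in IM 6h. Its groups overlapped, and MCM10 and CDC6, which act at replication origins, likewise were not called. Of 25 mitosis genes, 2 rose, CDC25C and NUSAP1, beside 5.82% higher among all genes tested. The log2 fold change was above 0 in 22 of the 25, and the median was 0.23. NUSAP1, a spindle protein, was at 184, 233 and 186 CPM in CTRL and at 314, 314 and 314 CPM in IM 6h (log2 fold change 0.64, SE 0.12, adjusted p 0.000625 by edgeR), and it was not called without CTRL replicate 1 or CTRL replicate 3. CCNB1 and PLK1, which drive entry into mitosis, were not called.

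Some survival genes of the BCL2 family were lower. Of 13 tested members 3 fell, BCL2L1, MCL1 and BCL2, which all restrain cell death, and 1 rose, BMF, which promotes it. Among all genes tested 4.12% were lower and 5.82% higher. BCL2L2 was tested and not called. In the paired fit, and in the pairs of the 6 libraries alone, PMAIP1 was called lower as well. BCL2L1, encoding BCL-XL, was at 86.6, 100.2 and 112 CPM in CTRL and at 35.0, 22.6 and 39.9 CPM in IM 6h (log2 fold change -1.62, SE 0.18, adjusted p 3.23e-06 by edgeR). BMF (chromosome 15, 40087890 to 40108892) was at 1.49, 2.51 and 1.45 CPM in CTRL and at 7.89, 12.9 and 15.8 CPM in IM 6h (log2 fold change 2.74, SE 0.31, adjusted p 3.23e-06 by edgeR). In both genes the treated libraries stood clear of the controls. MCL1 fell, from 327, 404 and 434 CPM to 254, 198 and 201 CPM (log2 fold change -0.83, SE 0.11, adjusted p 1.62e-05 by edgeR). BCL2L11, encoding BIM, was at 30.3, 29.6 and 51.4 CPM in CTRL and at 37.7, 53.8 and 67.7 CPM in IM 6h, with overlapping groups and no call (0.51, adjusted p 0.273 by edgeR).

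FOXO targets and antiproliferative genes rose in part, with 6 of 16 tested members higher and none lower (median log2 fold change 0.51). CITED2, a transcription coregulator, was at 66.1, 89.4 and 65.1 CPM in CTRL and at 183, 209 and 213 CPM in IM 6h (log2 fold change 1.46, SE 0.20, adjusted p 3.79e-05 by edgeR). SESN3, a stress regulator of mTOR signalling, was at 5.40, 5.97 and 4.63 CPM in CTRL and at 12.7, 11.9 and 18.6 CPM in IM 6h (log2 fold change 1.43, SE 0.26, adjusted p 0.000448 by edgeR). Neither gene had overlapping groups. CCNG2, an atypical cyclin, was at 0.88, 5.08 and 1.78 CPM in CTRL and at 10.9, 14.1 and 12.3 CPM in IM 6h (log2 fold change 2.25, SE 0.63, adjusted p 0.0177 by edgeR), a call that was lost without CTRL replicate 1, CTRL replicate 3 or IM 6h replicate 2. TXNIP, which limits glucose uptake, was not called (0.50, adjusted p 0.421 by edgeR), and IM 6h replicate 2, at 226 CPM, lay below the lowest control of 227 CPM. The number of members called higher was 3 without CTRL replicate 1 and 4 without CTRL replicate 3 or IM 6h replicate 3.

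Erythroid genes rose, and how far depended on the group of genes and on IM 6h replicate 3. Of 21 tested erythrocyte membrane and blood group genes, 14 rose and none fell, beside 5.82% higher among all genes tested, and the median log2 fold change was 1.16. ERMAP, the Scianna blood group protein (chromosome 1, 42817124 to 42844989), was at 66.6, 73.0 and 53.6 CPM in CTRL and at 162, 186 and 207 CPM in IM 6h. KEL, whose promoter is shown above (chromosome 7, 142941114 to 142962681), was at 56.8, 56.2 and 45.0 CPM in CTRL and at 129.8, 136 and 189.9 CPM in IM 6h. Both were higher in all treated libraries. The log2 fold change was 1.52 for ERMAP (SE 0.14, adjusted p 1.99e-07 by edgeR) and 1.53 for KEL (SE 0.22, adjusted p 6.24e-05 by edgeR), and without IM 6h replicate 3 it was 1.41 and 1.31, with both genes still called. AQP1, the water channel of the red cell, was at 3.58, 1.47 and 2.84 CPM in CTRL and at 12.0, 27.9 and 30.5 CPM in IM 6h. It rose by 3.15 on the log2 scale (SE 0.44, adjusted p 4.76e-05 by edgeR), and by 2.90 without IM 6h replicate 3.

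Other membrane genes rested on that replicate. SLC4A1, the anion exchanger band 3 (ENSG00000004939, chromosome 17, 44248385 to 44268141), was at 8.54, 5.76 and 3.90 CPM in CTRL and at 7.46, 14.3 and 413 CPM in IM 6h. IM 6h replicate 1 lay within the controls and replicate 3 far above everything else, so the log2 fold change of 4.57 (SE 1.18, adjusted p 0.0125 by edgeR) became 0.81 without replicate 3 (adjusted p 0.597 by edgeR). SLC4A1 was also not called without CTRL replicate 3. EPB42, whose promoter is also shown (chromosome 15, 43106225 to 43221283), was at 4.24, 3.35 and 1.34 CPM in CTRL and at 8.84, 9.17 and 53.9 CPM in IM 6h. Its groups did not overlap, but the log2 fold change of 3.00 (SE 0.70, adjusted p 0.0056 by edgeR) was 1.57 without replicate 3 and no longer called (adjusted p 0.0995 by edgeR). Over the list, 7 members were higher without IM 6h replicate 3, with a median of 0.69, and 9 without CTRL replicate 3. In the pairs of the 6 libraries alone 6 of 20 tested were higher, and SLC4A1 and EPB42 were not among them (adjusted p 0.522 and 0.29 by edgeR).

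Of 22 tested genes of haem synthesis and iron handling, 10 rose and none fell (median log2 fold change 0.57). ALAS2, the erythroid enzyme that starts haem synthesis (chromosome X, 55009055 to 55031064), was at 52.5, 40.2 and 18.8 CPM in CTRL and at 59.9, 92.9 and 279 CPM in IM 6h. The groups did not overlap by a small margin, and the log2 fold change of 1.95 (SE 0.60, adjusted p 0.0321 by edgeR) was 1.01 without IM 6h replicate 3 (adjusted p 0.317 by edgeR). The call was also lost without any 1 of the 3 CTRL replicates. ALAD, the next enzyme of the route, was at 15.1, 19.8 and 21.3 CPM in CTRL and at 43.6, 47.8 and 80.6 CPM in IM 6h (log2 fold change 1.61, SE 0.21, adjusted p 2.3e-05 by edgeR), and stayed called at 1.27 without replicate 3. TFRC, the transferrin receptor, and FTH1, a ferritin chain, were not called, at -0.07 and 0.07. Without IM 6h replicate 3, 5 members were higher and 1 lower, and without CTRL replicate 1, 6 were higher. In the pairs of the 6 libraries alone 6 were higher, without ALAS2 (adjusted p 0.394 by edgeR).

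Globin calls depended on the fit. No globin gene was called among 10 tested by edgeR without a replicate term or by DESeq2, 4 had an unadjusted p under 0.05, and the median log2 fold change was 0.78. The same count of 0 held by edgeR without IM 6h replicate 3, and 1 globin gene was higher without CTRL replicate 2. HBE1, embryonic epsilon globin, was at 1089, 1486 and 787 CPM in CTRL and at 1725, 1304 and 2686 CPM in IM 6h, and HBG2, fetal gamma globin, at 1242, 1629 and 882 CPM and at 2050.0, 1581 and 2395 CPM. HBZ, embryonic zeta globin, was at 77.0, 92.7 and 35.7 CPM in CTRL and at 111, 109 and 291 CPM in IM 6h. The HBE1 and HBG2 groups overlapped, while those of HBZ did not, and the log2 fold changes of 0.77, 0.68 and 1.31 did not pass the test (edgeR adjusted p 0.185, 0.202 and 0.119). In the paired fit 5 of 10 were higher, HBG2 (0.77) and HBZ (1.59) among them, each at an adjusted p of 0.0327 by edgeR, and in the pairs of the 6 libraries alone 1 was higher. HBZ was also called with the deposited replicate numbers as a block (1.58, adjusted p 0.038 by edgeR). With no count filter HBE1, HBG2 and HBZ were called, in a fit whose SE for HBE1 was 0.11 in place of 0.38. HBG1 and HBG2, and HBA1 and HBA2, are near-identical pairs whose shared reads are not counted, so their levels are uncertain.

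Erythroid transcription regulators moved in both directions, with 3 of 17 tested members higher and 2 lower, and 5 higher and 3 lower in the paired fit. TAL1 was at 168, 151 and 144 CPM in CTRL and at 199, 305 and 327 CPM in IM 6h (log2 fold change 0.84, SE 0.14, adjusted p 0.000185 by edgeR), and KLF1 at 93.1, 74.4 and 89.0 CPM and at 119.5, 155 and 154 CPM (0.74, SE 0.14, adjusted p 0.000878 by edgeR). Both kept their calls without IM 6h replicate 3. HEMGN was the third to rise (log2 fold change 1.12, SE 0.34). GATA2, the factor of earlier progenitors that GATA1 replaces as red cells mature, was at 194, 173 and 204 CPM in CTRL and at 93.8, 62.4 and 75.5 CPM in IM 6h, with no overlap, and fell by 1.30 on the log2 scale (SE 0.16, adjusted p 1.29e-05 by edgeR). MYB, which keeps progenitors dividing, had a log2 fold change of -0.82 (SE 0.24, adjusted p 0.0207 by edgeR) and lost its call without CTRL replicate 3 or IM 6h replicate 2. GATA1 itself was not called (-0.22, adjusted p 0.366 by edgeR), at 148, 154 and 194 CPM in CTRL and 149, 126 and 152 CPM in IM 6h.

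**Figure D4:**
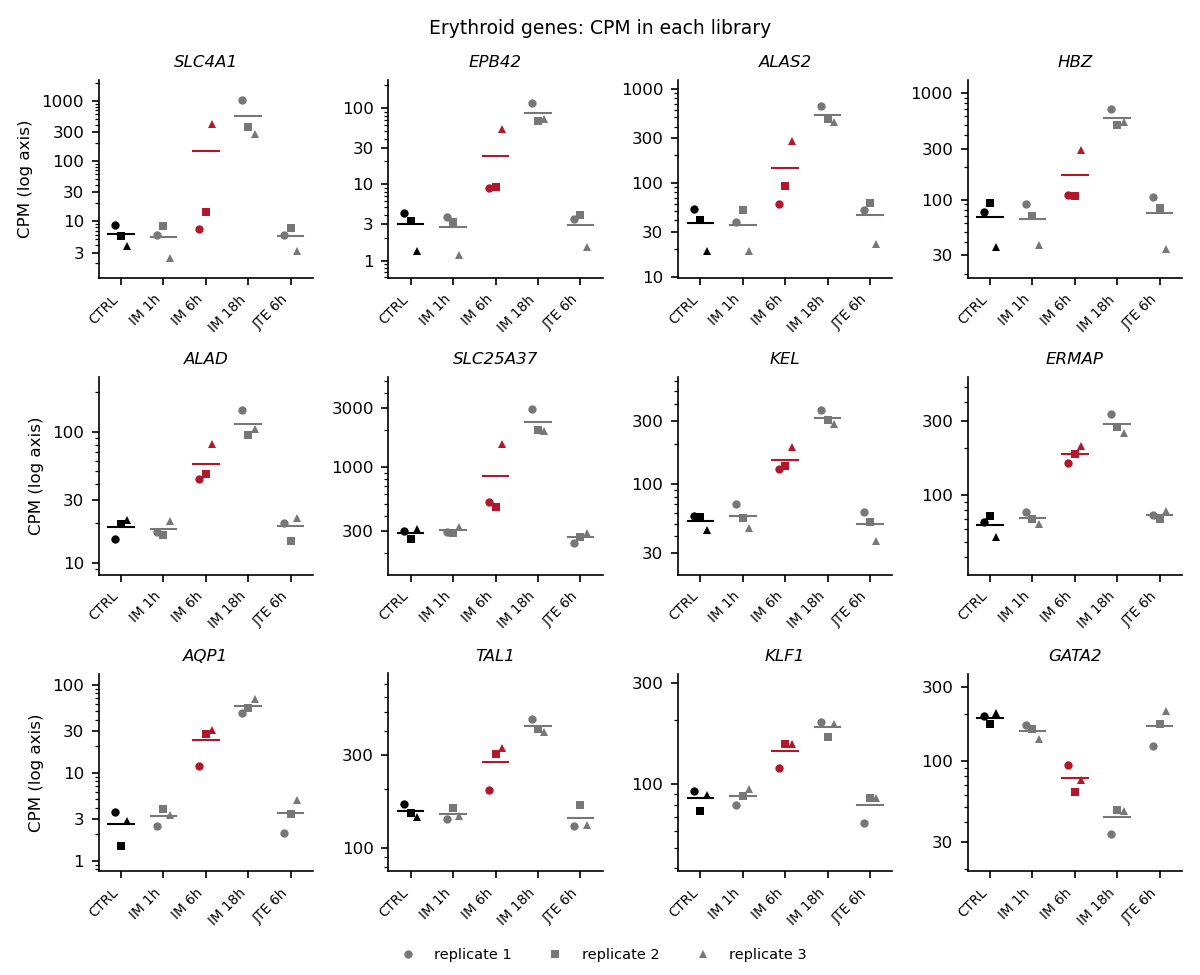
CPM (vertical, log axis) in each library of CTRL, IM 1h, IM 6h, IM 18h and JTE 6h for erythroid genes, with 1 symbol per replicate number and a line at the group mean. SLC4A1 was at 413 CPM in IM 6h replicate 3 and at 7.46 and 14.3 CPM in the other treated libraries, while ERMAP lay between 162 and 207 CPM in all 3.

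Markers of other blood lineages were also read. Of 15 megakaryocyte markers 6 passed the count filter and 2 of them rose, and the summed level of the list went from 17.3 to 22 CPM in CTRL to 49.7 to 91.3 CPM in IM 6h, most of it TUBB1. TUBB1, the platelet tubulin, was at 12.9, 17.3 and 8.81 CPM in CTRL and at 47.2, 43.8 and 81.6 CPM in IM 6h (log2 fold change 2.14, SE 0.35, adjusted p 0.000208 by edgeR) and stayed called at 1.78 without IM 6h replicate 3. ITGB3, at most 1.87 CPM, was the other (1.69, adjusted p 0.0358 by edgeR) and was not called without IM 6h replicate 3 or without CTRL replicate 1 or 2. Of the defining markers, PF4 had 0 counts and ITGA2B was not called (-0.11). The part of megakaryocyte-like cells in the erythroid results was not tested. Of 9 tested myeloid and lymphoid markers 1 fell, CD3D, at 2.43, 2.31 and 3.34 CPM in CTRL and 1.47, 0.61 and 0.88 CPM in IM 6h (log2 fold change -1.43, SE 0.35, adjusted p 0.00752 by edgeR), and 2 fell in the paired fit. Over all genes tested 4.12% were lower. The summed level of the myeloid and lymphoid list was 34.6 to 73.0 CPM in CTRL and 26.3 to 34.2 CPM in IM 6h. MPO, CD3E, MS4A1 and S100A8 were at or near 0 counts.

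Factors of mRNA 3′ end processing were not called, while some splicing factors were. None of 19 factors of mRNA 3′ end processing was called at 6 h of imatinib by edgeR or DESeq2, 4 had an unadjusted p under 0.05, and the median log2 fold change was -0.06. CPSF3, encoding CPSF73, was at 156, 163 and 136 CPM in CTRL and at 162, 156 and 148 CPM in IM 6h, and PCF11, a termination factor, at 112, 88.1 and 108 CPM and at 101, 107 and 114 CPM. The groups of both overlapped. Of 21 splicing factors and their kinases, 2 fell, GEMIN5 and SRSF7, and 1 rose, CLK4. Among all genes tested 4.12% were lower and 5.82% higher. GEMIN5, which binds snRNAs for their assembly into splicing particles, was at 172, 148 and 173 CPM in CTRL and at 71.6, 65.5 and 78.1 CPM in IM 6h (log2 fold change -1.20, SE 0.16, adjusted p 2.16e-05 by edgeR). SRSF7 was at 291, 217 and 345 CPM in CTRL and at 156, 154 and 188 CPM in IM 6h (-0.78, SE 0.18, adjusted p 0.00379 by edgeR). Neither had overlapping groups. CLK4 lost its call (0.68, SE 0.15) without CTRL replicate 3 or IM 6h replicate 3. SRSF1, SRPK1 and RBM5 had adjusted p under 0.05 with fold changes short of the threshold, at -0.35, -0.42 and 0.53.

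Lysosome, heat shock and mitochondrial genes had few members called. ULK1, a kinase that starts autophagy, was the only member called without a replicate term of 24 lysosome and autophagy genes (log2 fold change 0.99, SE 0.34, adjusted p 0.0467 by edgeR), and it lost its call without any 1 of the 6 libraries. Over all genes tested 5.82% were higher. The paired fit also called GABARAPL1, of the autophagosome (0.61, adjusted p 0.00836 by edgeR). Of 16 heat shock proteins 2 were called lower, beside 4.12% of all genes tested. All 16 had a log2 fold change below 0, with a median of -0.33. HSPA5, the chaperone of the endoplasmic reticulum, was at 569.6, 582 and 565 CPM in CTRL and at 358, 367 and 362 CPM in IM 6h (log2 fold change -0.66, SE 0.12, adjusted p 0.000412 by edgeR). HSPA8 (-0.64, adjusted p 0.0449 by edgeR) lost its call without CTRL replicate 1, CTRL replicate 3 or any 1 of the 3 IM 6h replicates. None of 13 transcripts of the mitochondrial genome was called by edgeR or DESeq2 or had an unadjusted p under 0.05, and the median was -0.03.

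The gene of a drug-metabolising enzyme was among the largest rises. CYP3A5, which oxidises many drugs including imatinib (chromosome 7, 99648194 to 99679998), was at 1.93, 2.15 and 1.39 CPM in CTRL and at 10.4, 13.98 and 28.9 CPM in IM 6h. Each treated library was above every control, and the log2 fold change was 3.27 (SE 0.34, adjusted p 1.92e-06 by edgeR). It remained called at 2.71 without IM 6h replicate 3. The uptake transporters SLCO1A2 and SLC22A4 also rose, SLCO1A2 from 3.25, 4.56 and 3.07 CPM to 11.1, 10.2 and 19.1 CPM (log2 fold change 1.89, SE 0.31, adjusted p 0.000201 by edgeR, and 1.53 without IM 6h replicate 3). The export pumps ABCB1 and ABCG2 were not called, at -0.69 and 0.83.

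**Figure D5:**
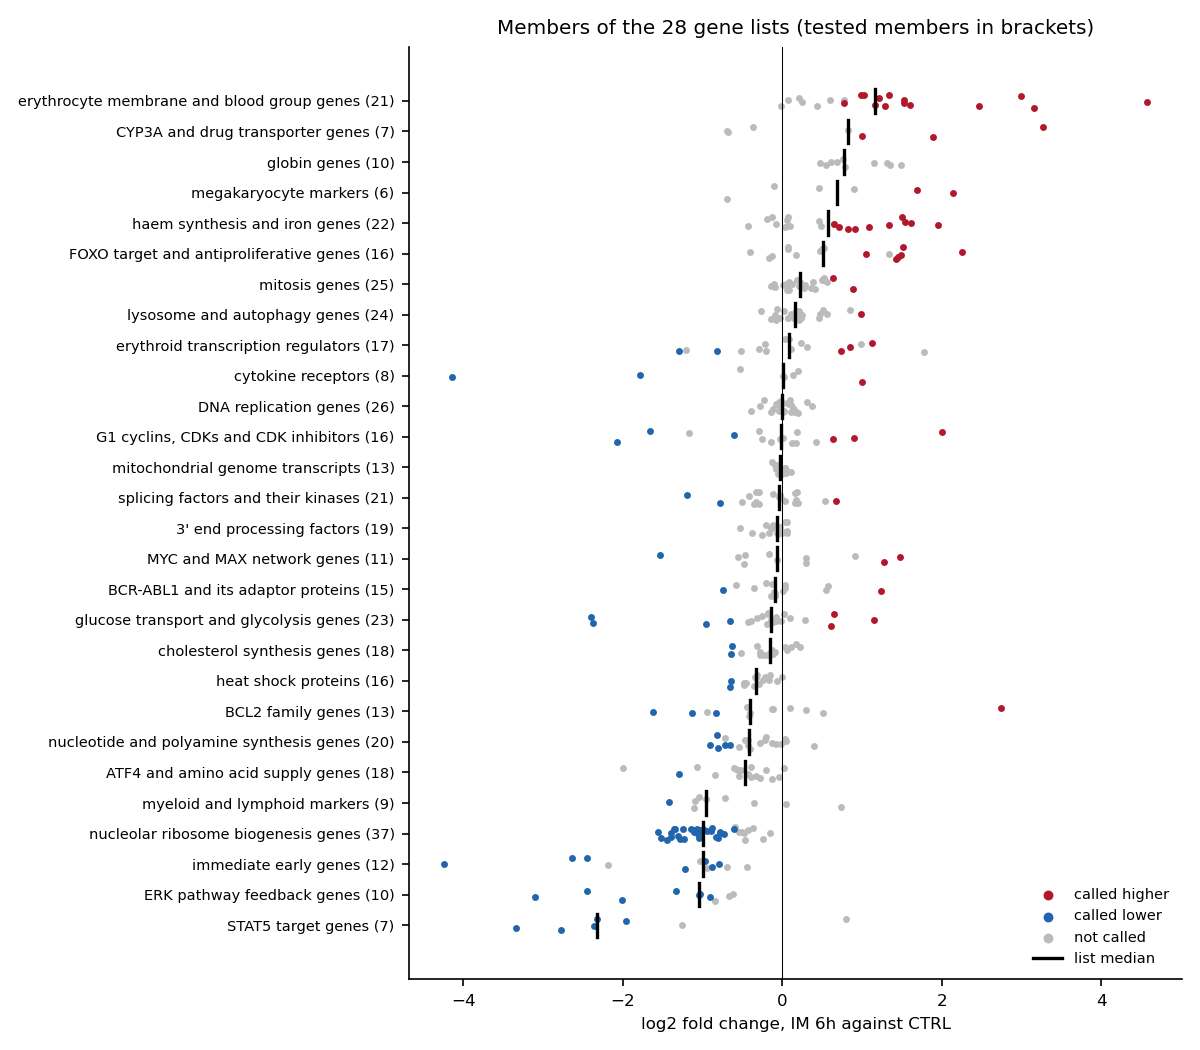
Log2 fold change of IM 6h over CTRL (horizontal axis) for the tested members of each of the 28 gene lists, 1 point per gene, coloured by call, with a black line at the list median and lists ordered by it. Ribosome biogenesis had 28 of 37 members lower, and erythrocyte membrane and blood group genes 14 of 21 higher.

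By fold change among genes at 10 CPM or more in the higher group with no overlap, the largest rises outside the lists were ESPN, TNS1, TP53INP1 and ARHGAP23. ESPN, an actin bundling protein, was at 1.05, 1.21 and 1.06 CPM in CTRL and at 2.50, 4.10 and 40.4 CPM in IM 6h. Its log2 fold change of 3.81 (SE 0.86, adjusted p 0.0048 by edgeR) was not called without IM 6h replicate 3 (1.54, adjusted p 0.125 by edgeR). TNS1, a focal adhesion protein, was at 11.3, 12.5 and 5.63 CPM in CTRL and at 35.2, 39.3 and 97.9 CPM in IM 6h (2.55, SE 0.49, adjusted p 0.00117 by edgeR). TP53INP1, a stress-induced antiproliferative protein, was at 3.09, 3.93 and 4.24 CPM in CTRL and at 12.5, 16.4 and 28 CPM in IM 6h (2.33, SE 0.36, adjusted p 0.000116 by edgeR). In each of these genes IM 6h replicate 3 was the highest library, and without it the log2 fold change was 1.90 for TNS1 and 1.92 for TP53INP1, both still called. TNS1 was not called in the pairs of the 6 libraries alone (2.39, adjusted p 0.156 by edgeR). Outside the lists the largest falls were APOL4 and the lncRNA LINC00861. APOL4 was at 15.5, 14.8 and 21.0 CPM in CTRL and at 1.38, 2.63 and 1.38 CPM in IM 6h (log2 fold change -3.25, SE 0.32, adjusted p 7.21e-07 by edgeR).

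By gene class, 9.61% of 2414 tested lncRNAs were higher and 1.78% lower, while 5.46% of 12704 protein-coding genes were higher and 5.09% lower. Counting took no account of strand, so the reads of a lncRNA cannot be told from those of an overlapping gene on the other strand.

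When these changes arose was asked by setting IM 6h directly against IM 1h. Of 18095 genes 1483 differed (8.2%), 828 higher (4.58%) and 655 lower (3.62%) in IM 6h. The total was 983 without IM 6h replicate 3, and the number higher was 437 without that library, and 454 or 546 when replicate 2 or 3 of IM 1h was omitted. The replicate numbers pair these libraries, and with them as a block 2065 genes were called, 1478 of them shared with the 1483. Results of single genes and lists below are from the fit without that block, which ignores the pairing. At 1 h only 3 genes were called against CTRL by edgeR, all lower, and 206 genes had an unadjusted p under 0.05. This contrast was fitted only without a replicate term. Of 7 tested STAT5 targets 2 were called lower at 1 h, and the list median against CTRL was already -1.17. The median at 1 h was -0.56 for immediate early genes and -0.01 for ribosome biogenesis genes. SOCS3, at 4.76, 3.33 and 2.07 CPM in IM 1h, did not differ by the test between 1 h and 6 h (log2 fold change -0.23, SE 0.31, adjusted p 0.681 by edgeR). CISH went on falling, from 22.1, 16.5 and 8.91 CPM in IM 1h (-1.01, SE 0.31, adjusted p 0.0348 by edgeR), and SOCS2, at 107, 87.6 and 62.9 CPM in IM 1h, fell mainly after 1 h (-2.07, SE 0.24, adjusted p 7.4e-06 by edgeR).

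Ribosome biogenesis differed between 1 h and 6 h in 29 of 37 members, all lower at 6 h. WDR43 was at 209.9, 258 and 235 CPM in IM 1h, well above IM 6h (log2 fold change -1.42, SE 0.17, adjusted p 1.11e-05 by edgeR). MYC, at 224, 156 and 104 CPM in IM 1h, was not called between the times in the fit without the block (-0.69, SE 0.28, adjusted p 0.115 by edgeR). EGR1 was likewise not called, at 20.8, 6.94 and 4.41 CPM in IM 1h (-0.96, SE 0.71, adjusted p 0.42 by edgeR). Erythrocyte membrane genes were higher at 6 h in 14 of 21 and haem and iron genes in 8 of 22, and KEL was at 69.8, 54.9 and 46.2 CPM in IM 1h. BMF, at 2.41, 1.5 and 1.42 CPM in IM 1h, was higher at 6 h by 2.78 on the log2 scale (SE 0.30, adjusted p 3.19e-06 by edgeR).

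How far the 6 h state was from that at 18 h was tested in the same way. Of 18095 genes 798 differed (4.41%), 448 higher (2.48%) and 350 lower (1.93%) in IM 18h. This count depended on single libraries: it was 182, 272 and 1474 when IM 6h replicate 1, 2 or 3 in turn was omitted, and 220 with IM 18h replicate 1 omitted. No STAT5 target was called between 6 h and 18 h by edgeR or DESeq2, and 2 of 7 had an unadjusted p under 0.05. SOCS3 was at 1.90, 1.95 and 2.59 CPM and CISH at 7.76, 8.37 and 6.77 CPM in IM 18h, with log2 fold changes of -0.42 (SE 0.32) and -0.04 (SE 0.32). ETV4, ETV5 and SPRED1 of the ERK feedback list were called lower at 18 h, ETV5 at 2.23, 2.47 and 2.97 CPM (log2 fold change -1.65, SE 0.49, adjusted p 0.0411 by edgeR). The ETV5 groups overlapped, since IM 6h replicate 2 lay below every IM 18h library and IM 6h replicate 1 was the highest.

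Of the 28 lists, those with the most members higher at 18 h were erythroid, with 13 of 21 membrane genes and 9 of 22 haem and iron genes. KEL was at 358, 304 and 283 CPM in IM 18h, above every 6 h library (log2 fold change 1.05, SE 0.22, adjusted p 0.00503 by edgeR). SLC4A1, at 1028, 374 and 284 CPM in IM 18h, was not called between the times (1.96, SE 1.01, adjusted p 0.246 by edgeR). The 18 h range of SLC4A1 included the 413 CPM of IM 6h replicate 3. Of the globins, HBA1 and HBQ1 were higher at 18 h by edgeR, and 6 of 10 by DESeq2. TFRC, not called at 6 h against CTRL, was higher at 18 h, at 2615, 1965 and 2026 CPM (0.80, SE 0.19, adjusted p 0.012 by edgeR). Among glycolysis genes, SLC2A3, PGAM1, ENO1, PKM and LDHA were lower at 18 h and SLC2A1 higher. LDHA was at 340.1, 445 and 502 CPM in IM 18h (-1.06, SE 0.19, adjusted p 0.00225 by edgeR), below every 6 h library.

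Finally, IM 6h was compared with JTE 6h, which shares the duration and not the target. Of 18095 genes 4310 differed (23.8%), 2468 higher (13.6%) and 1842 lower (10.2%) in IM 6h. With library totals in place of TMM factors the split was 3153 higher and 1422 lower, and the median of all genes moved by 0.13 on the log2 scale. The replicate numbers pair these libraries too, and with them as a block 4764 genes were called, 4290 of them shared with the 4310. Results of single genes and lists here and below are from the fit without that block. Since both groups are read against the same CTRL libraries, only the direct comparison is given. STAT5 targets were lower in IM 6h in 6 of 7, ERK feedback genes in 8 of 10, and ribosome biogenesis genes in 22 of 37. SOCS3 was at 31.6, 28.3 and 28.4 CPM in JTE 6h (log2 fold change of IM 6h over JTE 6h -3.36, SE 0.29, adjusted p 1.79e-08 by edgeR).

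Erythrocyte membrane genes were higher in IM 6h than in JTE 6h in 15 of 21 and haem and iron genes in 10 of 22. KEL was at 61.1, 51.1 and 36.9 CPM in JTE 6h (log2 fold change 1.61, SE 0.22, adjusted p 7.65e-06 by edgeR). Of 19 factors of 3′ end processing, 5 differed between IM 6h and JTE 6h, beside 23.8% of all genes tested: CSTF3, PCF11, CLP1 and RBBP6 were lower and CPSF4 higher in IM 6h. PCF11 was at 272, 257 and 299 CPM in JTE 6h, above all IM 6h libraries (-1.36, SE 0.11, adjusted p 1.11e-08 by edgeR), while CPSF3, at 203, 175 and 153 CPM, was not called (-0.19, adjusted p 0.131 by edgeR).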

How the data were processed

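Poly(A) mRNA of K562 cells was sequenced as read pairs. The authors trimmed and deduplicated the reads without molecular identifiers, aligned them to hg38 with STAR (unique mappers, introns up to 10000 bases) and counted pairs over exons with featureCounts, without a strand option. The deposited values are these raw counts per gene. The annotation release was not given in the sources used here. Of 58243 gene IDs, 57532 were in GENCODE 44, from which symbols and positions on hg38 were taken. Reads shared by near-identical genes were not counted, ambiguous pairs at overlapping genes were dropped, and deduplication can lower the most abundant transcripts.

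Library totals of the 27 mRNA libraries ran from 16439848 to 62953314 counts. Replicates differed by more than sampling noise (chi-square per gene 15.1 to 24.6 in CTRL and 15.5 to 30.0 in IM 6h), so each library was 1 replicate. Intervals of counts were not used. All 27 libraries in 9 groups entered 1 fit in edgeR 4.0.16 under R 4.3.3 (quasi-likelihood test, robust dispersion, TMM, filterByExpr), with 1 term per group. IM 6h was contrasted with CTRL, IM 1h, IM 18h and JTE 6h. The p-values were adjusted by Benjamini-Hochberg over the 18095 genes tested. The fit was tested on simulated data.

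Members and lists were chosen with earlier results of these data known. Named were the 8 largest rises and 8 largest falls among called genes with a symbol, at least 10 CPM in the higher group and no overlap, key genes of each list, and the 2 called members per list and direction with the smallest p. Members of a count of 5 or fewer, and ETV4, LIG1, SOCS2 and SLC2A3, were named after their values were seen. Results of some genes that the rule named are not reported here. Alternatives were DESeq2 1.42.0, other scalings, no filter, no fold change threshold, thinned counts, 2-group fits, a replicate block and leaving out each library.

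Pairing by replicate number was checked over 8817 genes. Same-number deviations from group means correlated above 0.1 in every pair for IM 6h with IM 1h (0.474, 0.541 and 0.478) and with JTE 6h (0.422, 0.575 and 0.410), so the numbers pair those libraries, a hint from the data. For CTRL the deposited columns and the sequencing summary of the study disagree: the totals of replicates 1 and 2 stand under each other's number in the summary. The deposited numbers are used to name the libraries. By those of the summary every pair with IM 6h correlated above 0.1 (0.422, 0.601 and 0.4045), so a paired fit with that numbering as a block, over all 27 libraries and over the 6 alone, was added after the data were seen.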

Additional observations from a re-analysis of the deposited data

Results flagged for a closer look

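The response differed with the length of treatment. Between IM 6h and IM 1h 1483 genes were called in the direct comparison, and between IM 18h and IM 6h 798 were called, both by edgeR's quasi-likelihood test of the difference itself.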

How the results depend on the processing

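For IM 6h against CTRL, DESeq2 called 1799 genes, of which 1662 were shared in the same direction, size factors of the RLE kind 1792, library totals 1865, no count filter 2079, thinned counts 1744 and only the 2 groups 1412. Without a fold change threshold it was 2898 (1420 lower). In the same setting 2361 (1215 lower) were called against IM 1h, 1510 (848 lower) for IM 18h against IM 6h, and 3023 lower against JTE 6h. With no count filter, IM 18h against IM 6h gave 1213 (637 lower).

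With the replicate block, 2331 genes were called against CTRL, 2065 against IM 1h, 4764 against JTE 6h and 1368 (831 higher, 537 lower) for IM 18h against IM 6h. By the deposited numbers IM 6h libraries share only a number with CTRL (same-number correlations -0.103, -0.319 and 0.405, only replicate 3 correlating best with its own number) and with IM 18h. With CTRL replicates 1 and 2 numbered as in the sequencing summary, a choice made after seeing the data, the correlations were 0.422, 0.601 and 0.4045 and each IM 6h library correlated best with its own pair. With those pairs as a replicate block 2480 genes were called, and 2114 with only the 6 libraries.

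Leaving out 1 library at a time gave 569 to 909 higher genes against CTRL. Against IM 1h it gave 983 to 1535 called and 437 to 810 higher. For IM 18h against IM 6h it gave 182 to 1474 called, 65 to 868 higher and 115 to 606 lower.

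Of 76 named genes called, 75 kept their call under DESeq2, 75 under the block, 74 in the paired fit (lost were CDC25A and SLC2A1) and 62 without IM 6h replicate 3. SLC2A1 was the loss under DESeq2 and under the block. In the pairs of the 6 libraries alone 63 kept it, with CCNG2, ESPN, GAB1 and TUBB1 among the losses. The signs that turned were all of genes not called. With library totals CDC6 was at 0.0185 and MT-CO1 at 0.0509. With no filter CPSF3 was at -0.0068 and KIT at -0.0178, and with thinned counts at -7e-04 and -0.0849. Leaving out 1 library at a time, the log2 fold change ranged from -1.14 to 1.19 for ASNS, -0.20 to 0.0252 for CCNB1, -0.14 to 0.0011 for CDC6, -4.81 to 3.23 for CHAC1, -0.0735 to 0.068 for CPSF3, -0.0812 to 0.16 for FTH1, -0.27 to 0.11 for ITGA2B, -0.59 to 0.85 for KIT, -0.13 to 0.0656 for MT-CO1, -0.0584 to 0.13 for PCF11, -1.67 to 0.84 for PHGDH, -0.0367 to 0.13 for PLK1, -0.0644 to 0.35 for SQSTM1 and -0.45 to 0.058 for TFRC. The cause of these changes was not tested. With 3 libraries a group, genes near the threshold move with any 1 library.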
